A study of Saccharomyces cerevisiae with 32 samples.

Results

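The steep switch of a 2 h yeast oscillation is the passage from 4 arrays at phases of 46.75, 59.22, 71.69 and 84.16 degrees to the next 4 arrays at 96.62, 109.09, 121.56 and 134.03 degrees. These 8 of the 32 arrays were chosen by the phase angle and time of their labels, and all S. cerevisiae genes on the array are described, with 5377 of 5449 genes above background and tested. The cells were CEN.PK113-7D, a MATa haploid laboratory strain, in a continuous glucose culture that was held at a constant pH, aeration and temperature and oscillated in dissolved oxygen. A sample was taken every 4 min and hybridized to 1 Affymetrix Yeast Genome 2.0 array, a 3' expression array. Both windows come from that 1 culture and share strain, medium and the absence of any added agent. The earlier window ran from 10.27 to 10.47 h and the later one from 10.53 to 10.73 h. The 4 samples of a window are consecutive time points and not replicate cultures, so every p-value below measures only the spread within the windows, and that spread includes the change over time inside a window. The labels name 2 fermentor models and do not say which one this culture used.

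Budding yeast in such cultures passes in turn through a phase of rapid respiration, when genes for building ribosomes and proteins are transcribed, and phases of slower growth, when genes for stress resistance, reserve carbohydrates, fat oxidation and self-digestion are on. The target of rapamycin kinase and the protein kinase A pathway promote the ribosomal programme in growing cells and hold the stress programme off. New ribosomes need RNA polymerases I and III for their RNAs, a large set of assembly factors in the nucleolus, and the ribosomal proteins. A population of cells was measured, so fewer cells in a state and less RNA per cell cannot be told apart.

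RNA was adjusted to 1 concentration before labelling, so the arrays hold relative levels. Levels are log2 of the deposited intensity plus 1.9, quantile normalized over the 32 arrays. Signals are the same values on the linear scale. The 24 poly-A control probe sets, bacterial sequences on the array meant for RNA added from outside, had a mean log2 intensity of 7.39 ± 0.08 (SD, n = 4) in the earlier window and 8.08 ± 0.09 (SD, n = 4) in the later one, a gap of 0.69. The labels do not say how much control RNA was added to a sample. Array medians of the yeast probe sets overlapped between the windows, from 10.57 to 10.87 and from 10.68 to 10.92. Scaled to these controls, the median of all genes moved by -0.63 between the windows, against 0.05 after quantile normalization. Directions below are those after quantile normalization, that is, relative to the bulk of yeast messages. Changes of direction with the control scaling are given beside the list or in the section on processing. They cover list medians and named genes called under at least 1 of the scalings. A gene called under neither may have turned without being listed. The part of the control gap in the results was not tested.

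The a-specific genes had signal, and the alpha-specific genes were not at 0. STE2, the receptor for alpha factor, had signals of 6563 to 14706 in the 8 samples, and the a-factor genes MFA1 and MFA2 lay between 10006 and 13400. The summed signal of the 7 a-specific genes was 63131 to 70461 in the earlier window and 42591 to 66548 in the later one. The 4 alpha-specific genes summed to 3030 to 3790 and to 3005 to 3251. Of these, SAG1, the alpha agglutinin, had signals of 758 to 1280, STE3 563 to 784, MF(ALPHA)1 827 to 2369 and MF(ALPHA)2 61.1 to 114. The 10 early meiotic genes had summed signals of 2391 to 2826 and 2862 to 4346. Of the 10, 7 were called higher, beside 35.9% of all genes tested, 1 lower and 2 neither. HOP1 rose by 1.13 ± 0.16 (SE), ZIP1 by 1.04 ± 0.18 and IME1, the meiotic master regulator, by 0.86 ± 0.17 on the log2 scale. The 1 gene called lower had a difference of -1.33, larger in size than any of these rises. The median of that list was 0.67, and with control scaling 0 were higher and 4 lower with a median of -0.17.

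Most of the measured genes moved. Between the windows 3517 of 5377 genes were called at an adjusted p under 0.05 in limma (65.4%), of which 1931 were higher (35.9%) and 1586 lower (29.5%) in the later window. A change of at least 2-fold was called in 570 genes upward (10.6%) and 574 downward (10.7%). These are estimates past 2-fold in genes called against no change: limma's treat, a test against a 2-fold difference, called 0 genes, with 572 at an unadjusted p under 0.05 and a smallest adjusted p of 0.0732. In 3277 genes (60.9%) the signals of the windows did not overlap. Scaled to the poly-A controls the split became 303 higher and 3457 lower, with 200 and 1567 past 2-fold: all 303 of those genes were also among the 1931 called higher, while 14.7% of the 1931 were called lower. The step into the earlier window from the 4 samples before it gave calls in 6.21% of the genes, and the step from the later window into the 4 samples after it gave 665 (12.4%). Both share samples with the main step, and leaving out 1 sample moved them between 0 and 512 and between 0 and 1136 calls, so their counts do not rank the steps. The main step kept between 2779 and 3805 calls without any 1 of its 8 samples. With time as a linear term beside the step limma called 0 genes, with 518 at an unadjusted p under 0.05, so a jump beyond a steady slope was not called in any gene.

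**Figure D1:**
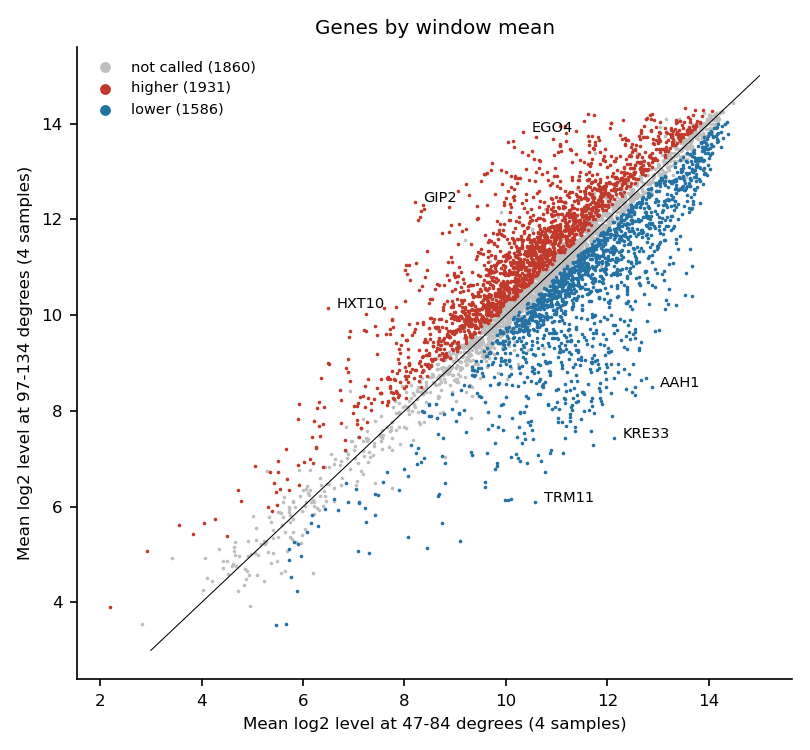
Mean log2 level of each of the 5377 tested genes in the earlier (horizontal axis) and later window (vertical axis), 4 samples each, with genes called higher in red, lower in blue and not called in grey, and the line of equal levels in black. Genes lie far from the line in both directions, with KRE33 and TRM11 at the lower edge and GIP2 and HXT10 at the upper edge.

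The fall was led by genes that build ribosomes. KRE33, an RNA acetyltransferase of the small-subunit pathway, had signals of 7616, 6732, 4702 and 1709 in the earlier window and 518, 152, 104 and 105 in the later one. Every later signal was below every earlier one, and the level fell by 4.70 ± 0.64 (SE) on the log2 scale with an adjusted p of 0.00253. NSR1, the yeast nucleolin, went from 14352, 11798, 7149 and 1970 to 447, 348, 416 and 448. Its signals reached their low already at 109.09 degrees and the difference was -4.08 ± 0.57. NOG1, a GTPase of large-subunit assembly, ran through 9851, 8228, 6297 and 2522 and then 942, 309, 258 and 231, without overlap and with a difference of -4.04 ± 0.56. The other genes among the 12 largest falls were TRM11 (-4.47 ± 0.71), a tRNA methyltransferase subunit, the small-subunit factors UTP14 (-4.43 ± 0.62), UTP13 (-4.10 ± 0.60) and PWP2 (-4.05 ± 0.65), the helicases DBP2 (-4.21 ± 0.56) and DBP3 (-4.02 ± 0.60), the RNA polymerase I subunit RPA49 (-4.20 ± 0.58), the adenine deaminase AAH1 (-4.39 ± 0.57) and the CTP synthase URA7 (-4.11 ± 0.55). AAH1 showed the course over its 8 samples as 12974, 11614, 7260, 2932, 806, 364, 251 and 220, a fall at every step.

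**Figure D2:**
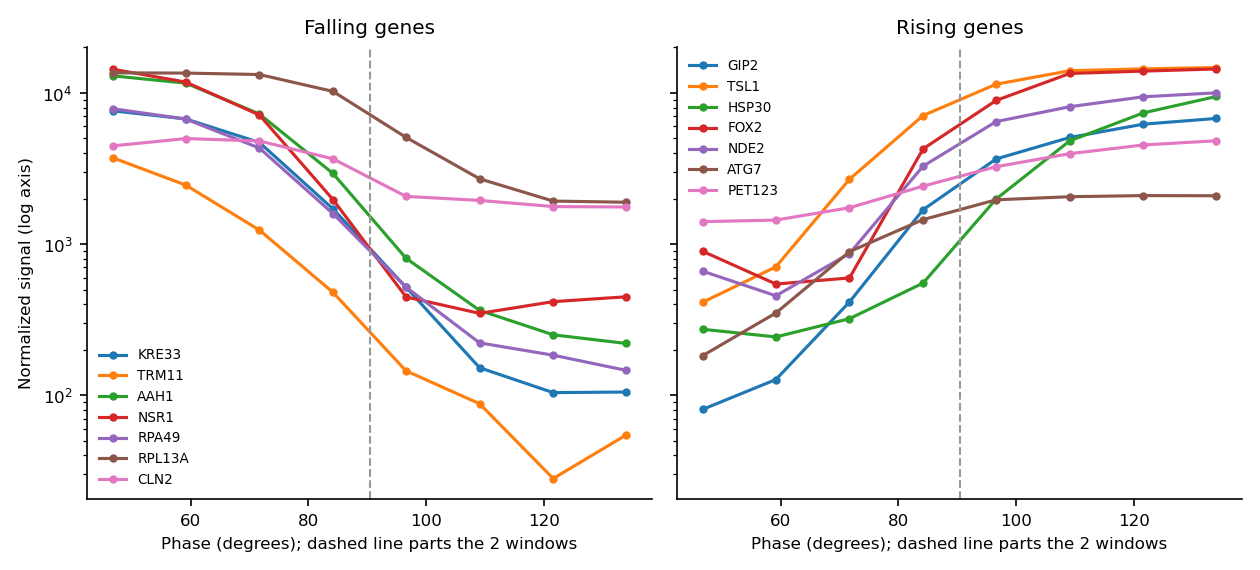
Normalized signal (log axis) of 7 falling and 7 rising genes in the 8 samples against phase in degrees, 1 point a sample, with a dashed line between the windows. KRE33 and NSR1 drop steeply from 71.69 degrees on while CLN2 and RPL13A turn later, and TSL1 and ATG7 climb earlier than HSP30.

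Assembly factors moved nearly as a block. Of 59 small-subunit processome genes 57 were called lower and 0 higher, with a median difference of -2.86 beside 0.05 for all genes tested, and all 57 fell at least 2-fold. The exceptions were the kinase RIO1, with a difference of -0.46 and an adjusted p of 0.25, and ESF1, with 0.28 and 0.248. All 68 large-subunit assembly genes were called lower, 67 of them at least 2-fold, with a median of -3.09. Their mean level fell by 4.06 on the log2 scale from 46.75 to 134.03 degrees, or 16.7-fold. Within that list REA1, a large ATPase of large-subunit maturation, fell by 0.89 ± 0.29, with signals of 11677, 11952, 11318 and 11570 and then 10264, 7514, 5786 and 3492. Its signal at 84.16 degrees was near that of the first sample, where KRE33 and NSR1 had lost most of theirs. Small nucleolar RNP genes were lower in 14 of 15, including SRP40 (-3.26 ± 0.59) and GAR1 (-3.15 ± 0.45). RSA1, with a difference of -0.19, did not pass the test.

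The polymerases that make ribosomal and transfer RNA fell in part. Of 15 RNA polymerase I genes 9 were lower, 1 higher and 5 not called, beside 29.5% lower and 35.9% higher of all genes. Their median was -1.70. RPA43 fell by 3.65 ± 0.57 and RPA12 by 3.46 ± 0.72, whereas RRN10 of the upstream activating factor was higher by 0.38 ± 0.11, or -0.45 with control scaling. Of 20 RNA polymerase III genes 12 were lower, 2 higher and 6 not called, with a median of -1.63. The subunits RPC19 and RPC40, which both polymerases share, differed by -2.79 ± 0.52 and -2.56 ± 0.34, and RET1, the second largest subunit of polymerase III, by -2.10 ± 0.27. TFC3 and TFC6, of the assembly factor TFIIIC, were the 2 members called higher (0.60 ± 0.13 and 0.25 ± 0.06), at -0.00 and -0.51 with control scaling. Among 28 tRNA modification genes 23 were lower and 0 higher, with a median of -1.79, for example DUS3 (-3.18 ± 0.55), a dihydrouridine synthase, and the pseudouridine synthase PUS1 (-2.70 ± 0.55).

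Cytosolic ribosomal proteins fell later and less. Of 128 genes 93 were lower, 1 higher and 34 not called, with a median of -0.47 and 19 falls past 2-fold. RPL13A held 13585, 13531, 13241 and 10239 and then dropped to 5082, 2703, 1925 and 1892, which is -2.24 ± 0.31. RPL22B (-1.95 ± 0.39) and RPS9A (-1.59 ± 0.33) followed, and RPL15B was the 1 gene called higher (0.26 ± 0.07, or -0.30 with control scaling). For 24 of the 128 genes the probe set names several genes, and near-identical copies can share probe sequence, so the signal of a single paralog is uncertain. The mean level of the list was 13.85, 13.85, 13.79 and 13.74 in the earlier window and 13.50, 13.31, 13.16 and 13.08 in the later one.

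Mitochondrial ribosomal proteins went the other way. All 72 of 72 were called higher, by a median of 0.80, and 71 had windows without overlap, beside 60.9% of all genes tested. With control scaling the median became 0.24, with 8 called higher and 0 lower, while the median of all genes was -0.63. PET123, a small-subunit protein, had signals of 1407, 1442, 1740 and 2418 and then 3250, 3965, 4524 and 4828, a rise of 1.26 ± 0.20. RSM25 rose by 1.22 ± 0.12 and MRP8, which the list carries by its historical name, by 1.24 ± 0.32.

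The rest of the translation apparatus was mostly lower. Aminoacyl-tRNA synthetases were lower in 15 of 18 with a median of -0.93, led by KRS1 (-1.81 ± 0.37), MES1 (-1.78 ± 0.23) and WRS1 (-1.75 ± 0.31). THS1, DPS1 and GUS1 were not called, with differences of -0.16, 0.03 and 0.05. Of 35 translation factors 29 were lower, 2 higher and 4 not called, with a median of -0.95. TIF4631, the scaffold eIF4G, fell by 2.08 ± 0.31, and the initiation factor subunits NIP1 and GCN3 by 1.81 ± 0.24 and 1.75 ± 0.32. Against them HEF3, an elongation factor 3 paralog, rose by 2.02 ± 0.30 from signals of 289 to 559 to signals of 1000 to 2237, and CAM1 was 0.21 ± 0.08 higher, or -0.47 with control scaling. TIF2, EFT2, HYP2 and TEF2, each from an abundant factor with a near-identical or closely related copy, were not called (-0.14, 0.00, 0.10 and 0.17).

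Karyopherins, the carriers of nuclear transport, were lower in 14 of 20 with a median of -0.72. KAP123, which imports ribosomal proteins (-2.01 ± 0.31), SXM1 (-1.96 ± 0.27) and the tRNA exporter LOS1 (-1.48 ± 0.29) fell most. GSP2, a Ran GTPase gene, rose by 1.47 ± 0.23. In the 8-subunit CCT chaperonin, which folds actin and tubulin, 6 genes were lower and 0 higher, and CCT5 had the largest called fall (-0.90 ± 0.12).

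Biosynthesis of sulfur compounds, amino acids and purines fell over a longer stretch. Of 30 sulfur genes 22 were lower and 1 higher, with a median of -1.07. MUP1, the high-affinity methionine permease, fell from 5886, 4524, 2006 and 551 to between 247 and 432, a difference of -2.76 ± 0.70. MET8 (-2.08 ± 0.51) and MET16 (-2.01 ± 0.43) also fell, and STR2, of transsulfuration, was 0.35 ± 0.07 higher, or -0.19 with control scaling. The mean of this list stepped down in every one of the 7 intervals and went from 11.43 to 11.14 on the log2 scale in the last of them. Of 20 purine genes 10 were lower, 2 higher and 8 not called, beside 29.5% lower and 35.9% higher of all genes. Their median was -0.32. IMD4, an IMP dehydrogenase gene (-3.02 ± 0.40) and the regulator BAS1 (-2.01 ± 0.42) fell, whereas ADE16 was 0.47 ± 0.11 higher (-0.13 with control scaling).

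Amino acid genes were lower in 42, higher in 5 and not called in 12 of 59, with a median of -0.56. LEU9, an isopropylmalate synthase gene, had signals of 5284, 5341, 4309 and 2390 and then 1191, 645, 445 and 382, a fall of 2.78 ± 0.40. ARO7 (-1.68 ± 0.28) and HOM3, the aspartate kinase gene (-1.64 ± 0.44), fell as well. HOM3 kept signals of 4531 and 4360 at 84.16 and 96.62 degrees before it dropped to 1225 at 134.03. The 5 genes that rose were ARO9 (1.95 ± 0.42), an aromatic aminotransferase used to break down amino acids, SER3 (0.64 ± 0.21), BAT2 (0.55 ± 0.11), GDH3 (0.26 ± 0.10) and LEU4 (0.19 ± 0.05). With control scaling ARO9 stayed above 0 at 1.42 and SER3 at 0.03, while BAT2, GDH3 and LEU4 turned to -0.17, -0.33 and -0.55.

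Cell cycle genes moved by less than 2-fold in nearly all cases. Of 36 G1/S genes 20 were lower and 0 higher, with a median of -0.49. CLN2, a G1 cyclin, had signals of 4466, 4990, 4810 and 3664 and then 2068, 1945, 1771 and 1759, a fall of 1.24 ± 0.11. MCD1, of cohesin, fell by 1.01 ± 0.17 and POL12, of DNA polymerase alpha, by 0.92 ± 0.15. In the origin licensing list 7 of 14 genes were lower, beside 29.5% of all genes, and 0 higher. MCM7, MCM2 and MCM6 of the replicative helicase differed by -0.99 ± 0.14, -0.94 ± 0.14 and -0.91 ± 0.12. In the G2/M cluster 6 of 19 were lower, a share near the 29.5% of all genes, and 13 were not called. Among the 6 were the cyclins CLB1 (-0.65 ± 0.17) and CLB2 (-0.63 ± 0.18) and the septum chitin synthase CHS2 (-0.62 ± 0.11). Histone genes were higher in 6 of 9 with a median of 0.30, HHO1 by 0.63 ± 0.15 and HTA1 by 0.40 ± 0.10, and the list's median turned to -0.41 with control scaling, where 0 were called higher and 6 lower. Of 14 genes of the daughter cell and M/G1 programmes 10 were higher, RME1 by 1.30 ± 0.30, PIR3 by 1.19 ± 0.25 and DSE3 by 0.65 ± 0.17, with a median of 0.50. With control scaling 0 were higher and 3 lower with a median of -0.12.

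Genes of reserve carbohydrates rose early. Of 26 trehalose and glycogen genes 23 were higher and 0 lower, 17 of them at least 2-fold, with a median of 1.63. With control scaling 11 were higher and 0 lower with a median of 1.08. GIP2, a targeting subunit of protein phosphatase 1 that acts on glycogen synthesis, had the largest rise of all genes tested, 4.17 ± 0.87. Its signals were 80.7, 127, 414 and 1688 and then 3657, 5074, 6213 and 6782. TSL1, of the trehalose synthase complex, climbed from 413, 707, 2685 and 7088 to 11424, 14027, 14439 and 14724, a difference of 3.14 ± 0.82, and GPH1, glycogen phosphorylase, rose by 2.89 ± 0.68. GSY1, glycogen synthase, ran through 156, 600, 2261 and 3888 and then 4332, 4610, 4701 and 4599. Its windows did not overlap, but its difference of 2.25 had an adjusted p of 0.0578 in limma. Most of its climb lay inside the earlier window. GAC1 (1.03) and PCL7 (0.22) also did not pass the test.

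Stress genes rose later than those of reserve carbohydrates, and the heat shock genes later than the general stress genes. HSP30, a plasma membrane protein, had signals of 273, 243, 321 and 552 and then 1986, 4818, 7379 and 9476, a rise of 3.94 ± 0.49. Of 24 heat shock genes 20 were higher and 3 lower, with a median of 0.94. With control scaling 10 were higher and 5 lower with a median of 0.31. SSA4, an inducible Hsp70, rose by 2.62 ± 0.39. The 3 that fell were SSB1 and SSB2, the Hsp70 proteins that bind nascent chains at the ribosome (-0.31 ± 0.11 and -0.31 ± 0.10), and SSE1 (-0.26 ± 0.09), and YDJ1 was not called (0.12). Of 28 genes of the general stress response 26 were higher, 25 of them at least 2-fold, with a median of 1.88. With control scaling 19 were higher and 1 lower with a median of 1.33. RTN2 (3.74 ± 0.62), PHM7 (3.53 ± 0.79) and the glutamate decarboxylase GAD1 (2.97 ± 0.51) led, and SOD1 (0.14) and TRX3 (0.26) did not pass. Other genes among the 12 largest rises were TKL2 (3.84 ± 0.46), the minor transketolase, FAT3 (3.83 ± 0.59), FMP45 (3.55 ± 0.55), RTC3 (3.50 ± 0.70) and EGO4 (3.49 ± 0.60).

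Genes of fat oxidation in the peroxisome had their steepest rise in 1 common interval and went on rising after it. FOX2, the second enzyme of beta-oxidation, had signals of 895, 544, 597 and 4265 and then 8919, 13453, 13949 and 14405. The step from 71.69 to 84.16 degrees alone was 2.83 on the log2 scale, and the difference between the windows 3.56 ± 0.62. POX1, the acyl-CoA oxidase that catalyses the step before, jumped by 2.70 in the same interval, and the transporter subunit PXA2 by 2.35. POT1, the thiolase, rose by 3.38 ± 0.49 in all. Of 46 genes of beta-oxidation and the peroxisome 37 were higher and 4 lower, with a median of 0.89, and all 19 that rose at least 2-fold had their steepest step from 71.69 to 84.16 degrees. With control scaling 14 were higher and 8 lower with a median of 0.29. The 4 that fell were PEX21 (-1.81 ± 0.24), PEX25 (-0.62 ± 0.08), the adenine nucleotide carrier ANT1 (-0.40 ± 0.09) and PEX34 (-0.23 ± 0.07).

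Autophagy, by which cells digest their own content in the vacuole, was higher in 30 of 34 genes and lower in 0, with a median of 1.07. With control scaling 7 were higher and 6 lower with a median of 0.36. ATG7, the E1-like activating enzyme, climbed from 183, 350, 891 and 1452 to 1963, 2058, 2093 and 2088, a difference of 1.93 ± 0.59. ATG34 and ATG39 rose by 2.14 ± 0.35 and 1.88 ± 0.46, and ATG41 was not called at -0.64. Of 11 vacuolar hydrolase genes 10 were higher, the alpha-mannosidase AMS1 by 2.33 ± 0.39, the aminopeptidase APE1 by 1.59 ± 0.36 and carboxypeptidase Y, PRC1, by 1.04 ± 0.19. Their median was 0.74, and with control scaling 2 were higher and 1 lower with a median of 0.04. Proteasome genes were higher in 23 of 33 and lower in 0, none by 2-fold, with a median of 0.34. With control scaling 0 were higher and 12 lower with a median of -0.27. RPN2, PRE3 and RPN3, the members with the largest differences, were 0.57 ± 0.12, 0.54 ± 0.11 and 0.51 ± 0.14 higher.

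Sugar uptake and glycolysis genes moved in both directions. Of 21 hexose uptake and sensing genes 8 were higher and 4 lower, beside 35.9% and 29.5% of all genes, with a median of 0.29. With control scaling 3 were higher and 8 lower with a median of -0.32. HXT5, a transporter of slow-growing cells, rose by 2.33 ± 0.55, HXT10 by 3.65 ± 0.51 and the glucokinase paralog EMI2 by 2.22 ± 0.56. HXT4, a transporter of cells at low glucose, fell by 2.48 ± 0.42, HXT2 by 0.80 ± 0.23 and the regulator MTH1 by 0.39 ± 0.09. Of 22 glycolysis and fermentation genes 11 were higher, 2 lower and 9 not called, with a median of 0.18. With control scaling 1 was higher and 16 lower with a median of -0.57. PYK2, the minor pyruvate kinase, rose by 1.42 ± 0.41, FBP26, fructose-2,6-bisphosphatase, by 1.18 ± 0.29, and PDC6, the minor pyruvate decarboxylase, fell by 1.11 ± 0.23.

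Of 41 measured isoenzyme pairs, 7 were called in opposite directions, 8 both higher, 5 both lower, 15 with 1 gene called and 6 with 0. With 35.9% of all genes called higher and 29.5% lower, calls in both directions are common, and the pairs are given as a description only. PFK26 and PFK27, which both make the glycolytic activator fructose 2,6-bisphosphate, crossed. PFK26 rose from 491, 738, 1267 and 2126 to 3208, 3749, 4087 and 4332 (1.94 ± 0.42), and PFK27 fell from 1903, 1502, 936 and 745 to 331, 173, 127 and 126 (-2.76 ± 0.40). For the hexokinases, HXK1 was 1.17 ± 0.43 higher, with signals of 3239, 6321, 12300 and 13949 and then 16408, 17064, 17730 and 18162, and HXK2 0.64 ± 0.19 lower. SOL4 (3.45 ± 0.78) and SOL3 (-0.21 ± 0.06), of the pentose phosphate pathway, SSE2 (2.75 ± 0.41) and SSE1, the Hsp110 chaperones, SER3 and SER33 (-1.12 ± 0.24), of serine synthesis, and LEU9 and LEU4 made 4 more pairs. The last was IMD2 (0.36 ± 0.08) and IMD3 (-0.86 ± 0.27), where IMD2 turned to -0.37 with control scaling, as LEU4 did. Without the array at 121.56 degrees 1 opposite pair was called, and without that at 59.22 degrees 3. Without the arrays at 71.69 or 109.09 degrees 4 were called.

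The direction of respiratory genes differed between the scalings. Of 19 gluconeogenesis, glyoxylate and acetate genes 7 were higher, a share near the 35.9% of all genes, 0 lower and 12 not called, with a median of 0.69. With control scaling 1 was higher and 3 lower with a median of 0.12. ADY2, the acetate transporter, rose by 2.46 ± 0.67, FBP1, fructose-1,6-bisphosphatase, by 1.66 ± 0.37 and the cytosolic malate dehydrogenase MDH2 by 1.37 ± 0.53. Of 21 tricarboxylic acid cycle genes 16 were higher and 0 lower, with a median of 0.46. With control scaling 1 was higher and 9 lower with a median of -0.23. The mitochondrial citrate synthase paralog CIT3 rose by 2.71 ± 0.49, KGD1 by 1.08 ± 0.24 and LSC2 by 1.04 ± 0.19, and the 5 not called were the citrate synthase genes CIT1 and CIT2, the aconitase ACO1 and the isocitrate dehydrogenase subunits IDH1 and IDH2, with differences of 0.32, -0.07, 0.13, 0.00 and 0.08. Of 37 respiratory chain and ATP synthase genes 25 were higher and 0 lower, with a median of 0.27. With control scaling 2 were higher and 27 lower with a median of -0.45. The largest rises were those of NDE2, an external NADH dehydrogenase (3.12 ± 0.56), CYC7, cytochrome c isoform 2 (2.80 ± 0.54), and COX5B, an alternative form of a cytochrome oxidase subunit (1.42 ± 0.30). Ergosterol genes were lower in 13, higher in 5 and not called in 6 of 24, beside 29.5% lower and 35.9% higher of all genes. Their median was -0.21. IDI1, ERG3 and ERG1 fell by 0.91 ± 0.13, 0.83 ± 0.16 and 0.81 ± 0.10, and HMG2, an HMG-CoA reductase gene, rose by 1.08 ± 0.21, with ERG28 (0.74 ± 0.18), ERG9 (0.61 ± 0.16), HMG1 (0.49 ± 0.11) and ERG6 (0.24 ± 0.07). With control scaling 0 ergosterol genes were higher and 20 lower with a median of -0.84, and ERG9, HMG1 and ERG6 were at -0.01, -0.11 and -0.51.

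**Figure D3:**
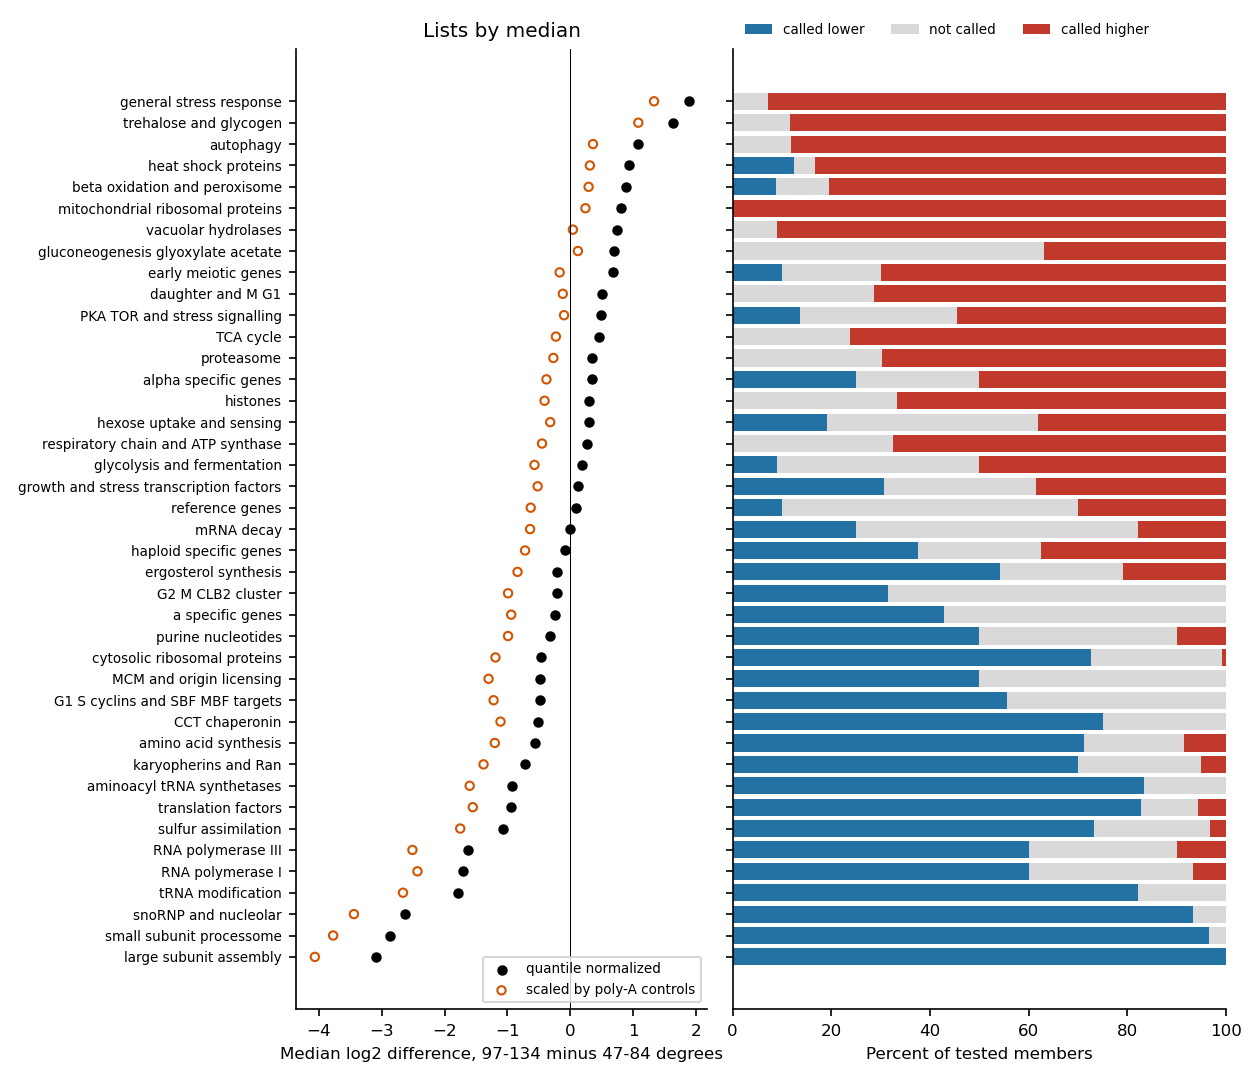
For each of the 41 gene lists, the left panel gives the median log2 difference between the windows after quantile normalization (filled) and after scaling to the poly-A controls (open), and the right panel the percent of tested members called lower (blue), not called (grey) and higher (red). Large-subunit assembly lies at -3.09 with every member lower and the general stress response at 1.88, and the open points lie to the left of the filled ones.

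Regulators of growth and stress moved in both directions. Of 22 signalling genes 12 were higher and 3 lower, with a median of 0.48. With control scaling 3 were higher and 8 lower with a median of -0.10. TPK2, a catalytic subunit of protein kinase A, rose by 1.84 ± 0.54 and TPK3, another, fell by 1.09 ± 0.18. RAS2 rose from 1943, 2263, 3959 and 6945 to 9133, 9916, 10559 and 9658 (1.56 ± 0.37), while its paralog RAS1 fell from 3180, 2367, 1578 and 1024 to 685, 496, 337 and 362 (-2.04 ± 0.38). SCH9, the kinase downstream of the rapamycin target, fell by 0.63 ± 0.10, and SIP2, a subunit of the Snf1 kinase, rose by 1.84 ± 0.41. Of 26 transcription factors 10 were higher and 8 lower, shares near the 35.9% and 29.5% of all genes, with a median of 0.12. With control scaling 2 were higher and 14 lower with a median of -0.52. CRF1, a corepressor of ribosomal protein genes, had signals of 120, 125, 132 and 249 and then 616, 1035, 1293 and 1408, a rise of 2.78 ± 0.32. IFH1, the coactivator of the same genes, fell from 3172, 2075, 990 and 438 to 219, 239, 229 and 317, a difference of -2.38 ± 0.56. The stress-induced factors XBP1 and USV1 rose by 2.54 ± 0.65 and 2.44 ± 0.83, and TOD6, a repressor of ribosome assembly genes, fell by 2.87 ± 0.56, as did GAT1 by 1.25 ± 0.15.

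In mRNA decay 5 genes were higher, 7 lower and 16 not called of 28, beside 35.9% higher and 29.5% lower of all genes, with a median of -0.01. With control scaling 0 were higher and 22 lower with a median of -0.64. EDC2 rose by 0.81 ± 0.16, while PUF4, which binds messages of ribosome assembly factors, fell by 0.60 ± 0.17 and the deadenylase subunit NOT3 by 0.63 ± 0.14. PUF3, which binds messages of mitochondrial ribosomal proteins, was 0.72 ± 0.16 higher at signals of 60.3 to 158. The 10 reference genes had a median of 0.09, with ACT1 at 0.09 and not called. Of them 3 were called higher, a share near the 35.9% of all genes, and 1 lower. Those higher were TUB1 (0.46 ± 0.11), PGK1 (0.30 ± 0.07) and PDA1 (0.18 ± 0.06), and TAF10 was lower (-0.23 ± 0.07). Scaled to the poly-A controls their median was -0.63, as for all genes.

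Much of the switch lay inside the earlier window. Among the 1144 genes called with a change of at least 2-fold, the steepest step of a riser fell in the intervals from 46.75 to 59.22, 59.22 to 71.69, 71.69 to 84.16, 84.16 to 96.62 and 96.62 to 109.09 degrees in 22, 163, 240, 120 and 25 genes. For the falling genes the same intervals held 1, 67, 257, 158 and 68, and the 2 intervals after them another 20 and 3. The steepest interval held a median of 33.1% of the change from the first to the last sample, and in 87 genes (7.6%) it held at least 50%. Over all 31 steps between neighbouring samples of the series, the 3 from 59.22 to 96.62 degrees moved 195, 287 and 175 genes by at least 2-fold, and the next were 70 from 96.62 to 109.09 degrees and 69 from 11.1 to 23.8 degrees.

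The midpoint of a gene's change, the phase at which it first passed the middle between its levels at 46.75 and 134.03 degrees, had a median of 80.0 degrees for the 570 risers (quartiles 74.1 and 87.5) and 83.0 degrees for the 574 fallers (76.8 and 91.0). That gap of 3.0 degrees is smaller than the 12.5 degrees between samples. With control scaling the medians of the same 570 and 574 genes were 67.6 and 88.2 degrees. By list, the earliest were the 5 hexose uptake and sensing genes that rose at least 2-fold, the transporters HXT5 and HXT10 and the kinases HXK1, GLK1 and EMI2, with a median midpoint of 70.2 degrees, the 17 trehalose and glycogen genes at 73.2, the 18 autophagy genes at 75.1 and the 8 signalling genes at 75.6. Polymerase III subunits (76.9), the small-subunit processome (80.3), tRNA modification (80.7), peroxisome genes (80.9), general stress genes (81.7) and large-subunit assembly (82.6) lay between. Heat shock genes (89.4), mitochondrial ribosomal proteins (89.5), purine genes (91.6), synthetases (93.2), cytosolic ribosomal proteins (94.3) and amino acid genes (97.3) came last. With control scaling this order changed, and every rising list came before every falling one. Medians of the rising lists then ran from 64.6 (autophagy) to 80.5 (heat shock), with mitochondrial ribosomal proteins at 72.7. Those of the falling lists ran from 84.7 (polymerase III) to 94.3 (amino acid genes). In the order after quantile normalization the quartiles of neighbouring lists overlap, while those of trehalose and glycogen (69.6 to 76.9) and of cytosolic ribosomal proteins (89.9 to 97.5) do not. These midpoints describe 1 passage in 1 culture and carry no test.

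**Figure D4:**
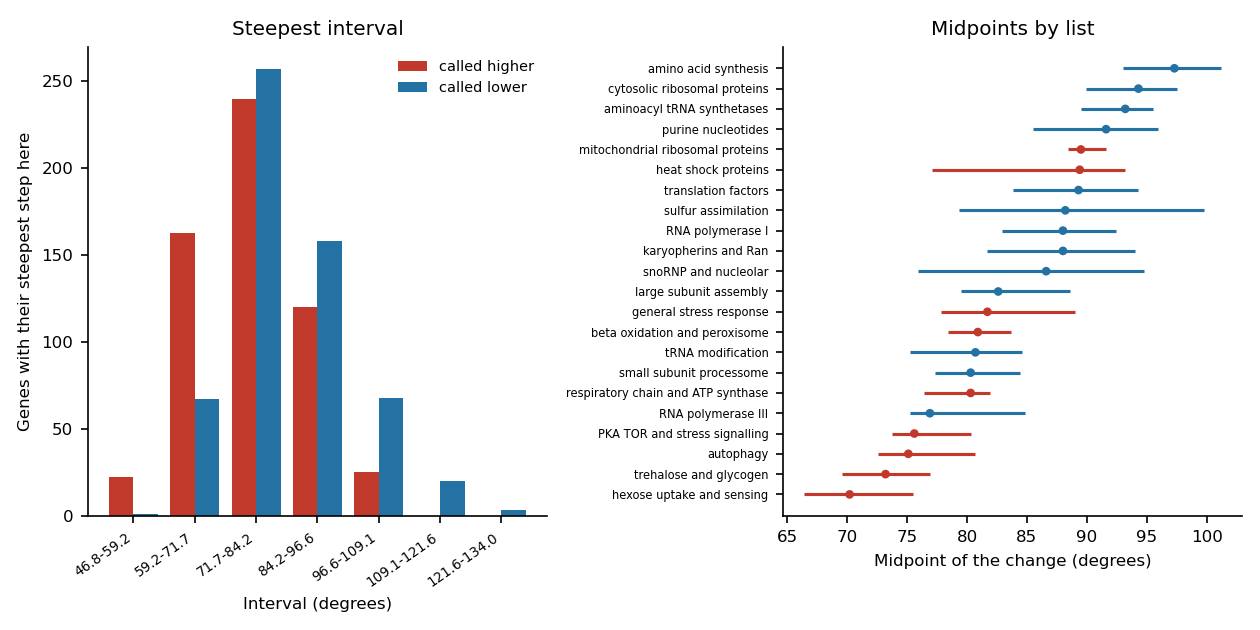
Left, number of genes called with a change of at least 2-fold whose steepest step lies in each of the 7 intervals between neighbouring samples, risers in red and fallers in blue. Right, median (point) and quartiles (line) of the midpoint phase of such members for each list with 5 or more in 1 direction, risers in red and fallers in blue, from hexose uptake and sensing at 70.2 to amino acid synthesis at 97.3 degrees.

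Among called genes with the largest early steps up were RGI1, a respiratory growth gene, with signals of 1099, 3295, 7523 and 12939 before the boundary and 15545 to 17401 after it, and BDH2, a butanediol dehydrogenase paralog, whose step of 2.24 lay at 59.22 to 71.69 degrees. Among falls, DCG1 fell by 0.77 from 46.75 to 59.22 degrees and SUT2 fell by 0.52. Some of the steepest steps equal a very short apparent halving or doubling time. NSR1 lost 2.14 from 84.16 to 96.62 degrees, a halving in 1.87 min, the assembly factors RSA4 and ALB1 each lost 2.02 from 71.69 to 84.16 degrees, and FOX2 doubled in 1.41 min. Over the 257 fallers with their steepest step from 71.69 to 84.16 degrees, the median of that step equals a halving in 4.23 min. Among the late movers PMA2, a plasma membrane proton pump gene, rose by 1.28 from 96.62 to 109.09 degrees. The mating genes BAR1 (-0.74 ± 0.25), STE6 (-0.86 ± 0.19) and FUS3 (-1.06 ± 0.25) had most of their fall after 96.62 degrees, and HO, the mating-type endonuclease, fell by 1.81 ± 0.25, from 5695 at its highest to 1026.

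**Figure D5:**
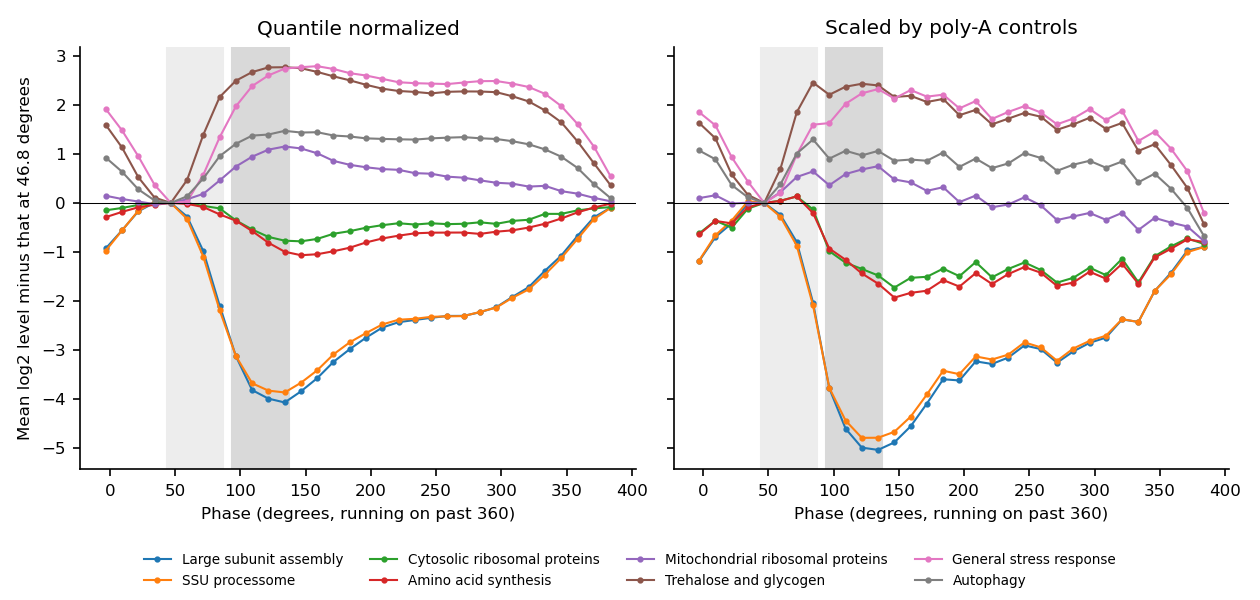
Mean log2 level of 8 gene lists in all 32 samples relative to the sample at 46.75 degrees, against phase in degrees running on past 360, with quantile normalized values on the left, poly-A scaled values on the right and the windows shaded. In the left panel the assembly lists fall to their lowest mean at 134.03 degrees and climb back slowly, while the general stress and reserve lists have their lowest mean at 46.75 degrees.

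The new state lasted unequally. Of the 570 risers 568 were still past the middle of their window means in the window from 146.49 to 183.90 degrees, 544 in the next (196.36 to 233.77), 522 in the third (246.23 to 283.64) and 467 (81.9%) in the fourth (296.10 to 333.51), and 116 in the last. Of the 574 fallers 571 were still below the middle in the first of these windows, 458 in the second, 384 in the third and 216 (37.6%) in the fourth, and 34 in the last. A larger share of risers than of fallers was past the middle in each of these 5 windows, though in the first only by 99.6% against 99.5%. These counts use quantile normalized levels and were not made with control scaling, so whether the difference in duration holds there was not tested. KRE33, for example, had window means of 7.44 in the later window and 8.21, 9.78, 10.16, 10.72 and 12.09 in the windows that followed, on the log2 scale.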

How the data were processed

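Per the labels, 32 RNA samples of 1 continuous culture were each hybridized to 1 Affymetrix array, and the 8 arrays of the compared windows were grouped by the phase angle of their labels. Intensity on a linear scale was deposited for each probe set. Per the submitters' processing notes the tool was GCOS, and the scaling target and summary algorithm were not given in the sources used here. Species and genes come from the platform annotation with current RefSeq symbols: 5498 probe sets name S. cerevisiae genes, 1747 S. pombe, and 3470 are unnamed.

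From these, log2(intensity + 1.9), where 1.9 is the 10th percentile of all values, was quantile normalized across the 32 arrays on the probe sets of S. cerevisiae. The brightest probe set stood for a gene, and genes were tested where their mean passed 4.449, the level under which 95% of the S. pombe probe sets lie. Windows were compared with limma 3.58.1 in R 4.3.3 (lmFit and eBayes, Benjamini-Hochberg over all genes tested, adjusted p under 0.05). Of the tested genes, 110 came from probe sets of several genes. The test was run on simulated data first. Array data give no counts, so the number of arrays limits the precision. Running number of the array in the labels was tried as a covariate.

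The windows, lists and named genes were chosen with earlier results of these data known. Named were the 12 largest rises and falls without overlap and above background, up to 3 called members of each list and direction, up to 2 called genes of each interval and direction, list exceptions of 5 or fewer, opposite isoenzyme pairs, reference genes and markers. Lists were described by counts and medians alone. Promoter sequences were not analysed here. Tables were made with Python 3.11.15, pandas 2.3.3, numpy 2.4.6 and matplotlib 3.10.9.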

Additional observations from a re-analysis of the deposited data

Results flagged for a closer look

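In 502 windows of 4 samples (210 genes and 41 lists), 15 held a sample whose gap to its nearest neighbour, as a share of the window's range, exceeded Dixon's critical value, and chance flags about 1 in 20 such groups. Most of these samples stood next to the boundary between the windows. At 84.16 degrees, the last sample before it, the signals of CRF1 (249), ERG3 (10335), HO (3000), MCM7 (3047), RPL13A (10239) and SCH9 (4214) stood apart from the 3 samples before. At 96.62 degrees, the first sample after it, those of EMI2 (5868), FOX2 (8919), IDI1 (3898), RIO1 (1271), SUT2 (1049) and UTP14 (389) and the mean level of the glycolysis and fermentation list (12.87) stood apart from the 3 samples that followed. ACO1 was low at 46.75 degrees (13188) and SSB1 high at 71.69 degrees (20543). The 3 other samples of SSB1 in that window had equal signals after quantile normalization, which gives equal ranks the same value, so they need not be equal intensities.

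Of the 3470 probe sets with no gene name in the annotation, which entered no comparison, 251 (7.23%) were brighter than 99% of those of S. pombe. Among them 42 were higher and 18 lower by at least 2-fold in the later window without overlap of the windows. What they detect was not tested.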

How the results depend on the processing

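Changes of pseudocount, filter or probe set rule left each of the main calls within 1.5 times. Between 138 and 197 of the 210 named genes kept their direction and side of the threshold under the scalings, the running number, the wider spread estimate and the narrower windows. These counts include genes called in neither fit, whatever their direction. Leaving out 1 sample cost 3 to 24 of the named genes their call. Scaled to the poly-A controls, counts became 303 higher and 3457 lower (200 and 1567 past 2-fold), the step before gave 186 calls, 8 in place of 20 of the 41 list medians lay above 0, and the gap of midpoints became 17.7 degrees over the genes called past 2-fold under that scaling. Medians then turned for histones (-0.41), daughter and M/G1 genes (-0.12), proteasome (-0.27), hexose uptake (-0.32), glycolysis (-0.57), the tricarboxylic acid cycle (-0.23), respiratory chain (-0.45), signalling (-0.10), transcription factors (-0.52), reference (-0.63), alpha-specific (-0.38) and meiotic genes (-0.17). So did ACO1 (-0.61), ACT1 (-0.66), ADE16 (-0.13), BAT2 (-0.17), CAM1 (-0.47), CIT1 (-0.41), DPS1 (-0.66), EFT2 (-0.73), ERG6 (-0.51), ERG9 (-0.01), GDH3 (-0.33), GUS1 (-0.66), HMG1 (-0.11), HTA1 (-0.37), HYP2 (-0.66), IDH1 (-0.70), IDH2 (-0.63), IMD2 (-0.37), LEU4 (-0.55), MFA1 (-0.64), PDA1 (-0.58), PGK1 (-0.45), PRE3 (-0.08), RPL15B (-0.30), RPN2 (-0.01), RPN3 (-0.08), RRN10 (-0.45), SAG1 (-0.19), SOD1 (-0.62), STE3 (-0.46), STR2 (-0.19), TEF2 (-0.56), TFC3 (-0.00), TFC6 (-0.51), TUB1 (-0.20) and YDJ1 (-0.57). The cause was not tested.

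With time as a linear term, which is nearly collinear with the step, limma called 0 genes in all 3 comparisons and in each direction (518 at an unadjusted p under 0.05 in the main step) and 0 opposite pairs. The step beyond the slope then turned for the medians of sulfur (0.08), purine (0.02), histone (-0.10), daughter (-0.04), proteasome (-0.04) and transcription factor genes (-0.19), and for ATG7 (-0.19), BDH2 (-0.45), CAM1 (-0.03), DCG1 (0.35), DSE3 (-0.09), ERG28 (-0.03), HOM3 (0.39), HTA1 (-0.01), HXK1 (-0.38), HXT2 (0.00), IMD3 (0.13), MDH2 (-0.56), MET16 (0.06), MET8 (0.36), MF(ALPHA)1 (0.05), MRP8 (-0.09), MUP1 (0.10), REA1 (0.14), RGI1 (-0.53), RME1 (-0.02), RPN3 (-0.10), RRN10 (-0.01), SSB1 (0.02), STE2 (0.03), SUT2 (0.18), TPK2 (-0.18) and USV1 (-0.45). Against a 2-fold difference, limma's treat called 0 genes (572 at an unadjusted p under 0.05, smallest adjusted p 0.0732).

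Opposite isoenzyme pairs numbered 4 with the array running number as a term and 3 without scaling, and 1 to 7 without 1 sample. The step before had 0 calls with the running number, 1518 with all 32 samples in the fit and 553 without the 2 boundary samples, and 0 to 512 without 1 sample. The step after had 145 without scaling and 1031 without the boundary samples, and 0 to 1136 without 1 sample. Without 1 sample the main step had 2779 to 3805 calls, 1544 to 2062 higher and 1235 to 1743 lower, with 457 to 732 and 507 to 684 past 2-fold, and 20 list medians above 0. Over the genes then called past 2-fold, midpoint gaps were 2.1 to 2.8 degrees. Each midpoint still used every sample of both windows, so the timing itself was not tested by leaving out samples. The alternative on promoter length was not run. No paired analysis was possible because a replicate number here only orders the time points of 1 culture and pairs no samples.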

Other observations

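Some genes passed through a peak or a trough inside the 8 samples that a difference of window means describes poorly. Among 5271 genes brighter in all 8 samples than 99% of the S. pombe probe sets, 12 rose and 21 dipped by at least 2-fold against both the first and the last sample, and 9 of these 33 were called between the windows. The genes named here were chosen after their values were seen. STL1, a glycerol importer, went through signals of 180, 156, 941, 4440, 5456, 3761, 2474 and 1624. ICL1, isocitrate lyase of the glyoxylate cycle, peaked at the same phase, from 2506 at 46.75 degrees to 9693 at 96.62 degrees and 4109 at 134.03 degrees. CRC1, the mitochondrial carnitine carrier, peaked at 4998 at 84.16 degrees between 1716 and 1842, and SFC1, a succinate and fumarate carrier, at 10116 between 2275 and 4853. None of these 4 was called, with adjusted p-values in limma of 0.0796 for STL1, 0.176 for ICL1, 0.705 for CRC1 and 0.344 for SFC1.

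Other genes fell before they rose. FDH1, formate dehydrogenase, went down from 5356 to 1285 at 84.16 degrees and reached 8919 at 134.03 degrees. SIP18, a desiccation protein, dipped from 2153 to 877 at 71.69 degrees before it climbed to 17064, and PAI3, a cytoplasmic inhibitor of proteinase A, from 711 to 267 before 4206. AQR1, a multidrug transporter, fell from 1033 to 48.4 at 84.16 degrees and stood at 144 at 134.03 degrees.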
